A study of Mus musculus with 10 samples.

Results

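The genes described here encode the subunits of RNA polymerases I, II and III. They were chosen as the protein-coding rows of the deposited expression table whose symbol starts with Polr1, Polr2 or Polr3, which gave 28 genes of 52097 in the table. The values came from haematopoietic stem cells of mouse bone marrow, with about 5000 cells per sample sorted by the gate Lin-Sca-1+c-Kit+CD48-CD150+, and were given as FPKM, a level scaled to the length of the transcript and the size of the library. The compared groups were 5 Dhx16 knockout samples (titled Dhx16_CKO, genotype KO) and 5 control samples (titled Dhx16_fl, genotype WT). Dhx16 encodes an RNA helicase that acts in the activated spliceosome. The titles point to a conditional deletion of a floxed gene, and the Cre driver, the strain and the age of the mice are not given in the sources used here. The 10 library columns carried their own numbers (CKO7, CKO8, CKO9, CKO12 and CKO13, and WT2 to WT6), so each was assigned to its group and not to a titled sample. Nothing in the labels says that the samples came from separate animals, so p-values measure only the spread between these samples.

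The nucleus divides transcription among 3 enzymes. RNA polymerase I makes the precursor of the large ribosomal RNAs, RNA polymerase II makes messenger RNAs and most small nuclear RNAs, and RNA polymerase III makes transfer RNAs, 5S ribosomal RNA and other short RNAs. Each enzyme has a pair of large catalytic subunits of its own, an assembly platform, a stalk and a set of small subunits, and some of the small subunits are built into all 3 enzymes. Blood stem cells divide rarely and make little protein, and polymerase I and III output is known to go up when cells enter growth and division.

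Of the 28 genes, 9 were higher and 1 was lower in knockout libraries with the values as deposited. Among all 13448 genes tested, 13.4% were called higher and 36.4% lower (limma on log2 of FPKM + 1, Benjamini-Hochberg adjusted p under 0.05 over all genes tested). All 28 genes passed the filter of 1 FPKM in at least 5 of the 10 libraries. All changes are given as log2 differences of FPKM + 1, knockout minus control, with the standard error (SE) from the fit. The median change of the 28 genes was 0.27, against -0.26 over all genes tested. Scaling between libraries moved both medians together. Setting all library totals equal gave 0.12 for the 28 genes and -0.38 for all genes tested, with 5 of the 28 higher and 2 lower (9.65% and 43.7% of all genes tested). Upper-quartile scaling gave 0.40 and -0.15, with 18 higher and 1 lower (19.4% and 29.2% of all). Median-of-ratios scaling gave 0.53 and -0.04, with 19 higher and 1 lower (23.9% and 22.0% of all). Shifting the knockout libraries until their median change met the authors' deposited fold changes, called the authors' scaling below, gave 0.63 and 0.05, with 19 higher and 1 lower (25.9% and 14.8% of all). Because the count depends on scaling, genes called in the same direction under all 5 scalings are set apart below. They were Polr1c, Polr2f, Polr2j, Polr2l and Polr2m, higher, and Polr3gl, lower, while over all genes tested 9.65% were higher and 14.8% lower by that rule.

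**Figure D1:**
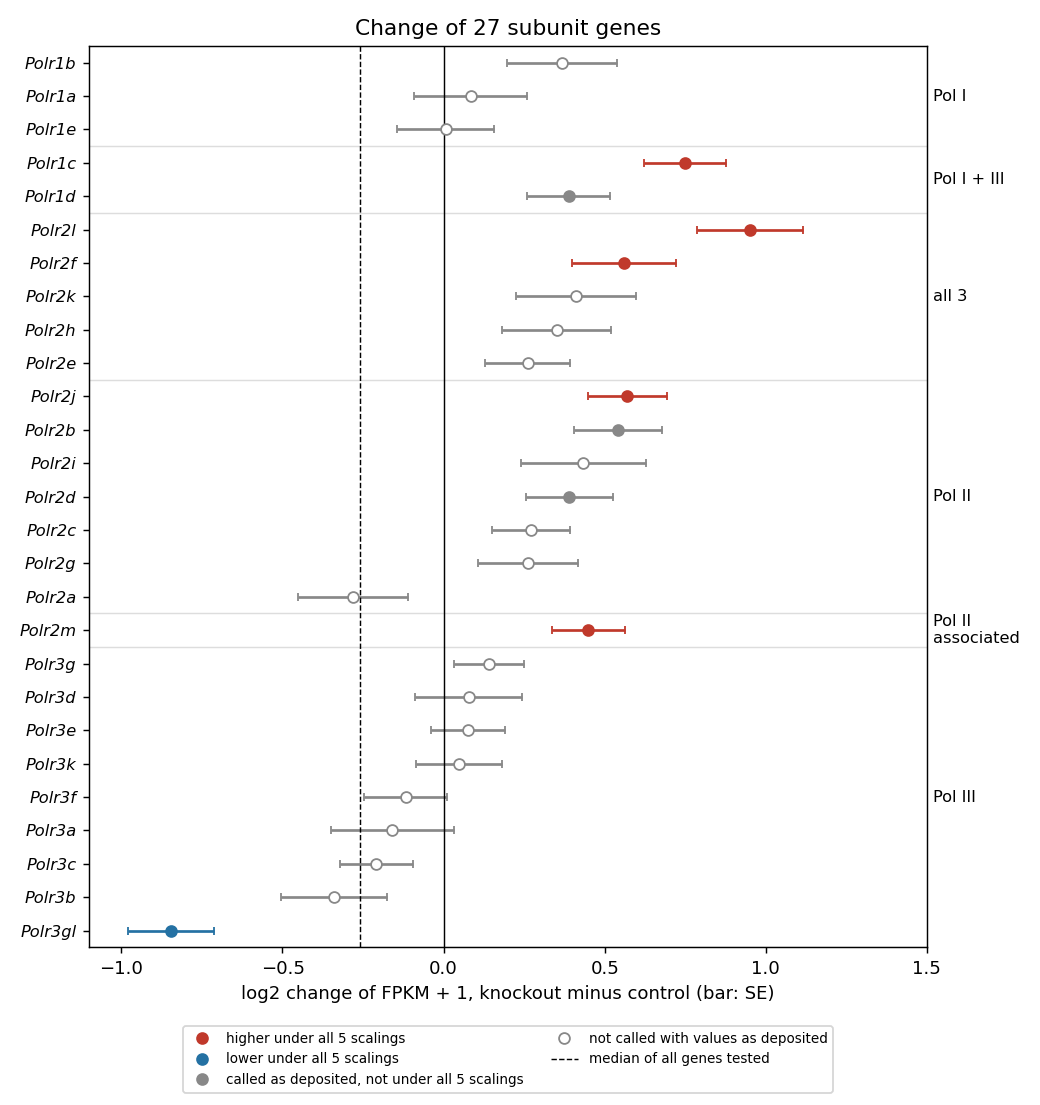
Log2 change of FPKM + 1 (knockout minus control, x axis) for 27 of the 28 genes, grouped by enzyme, with bars of 1 SE and a dashed line at the median of all genes tested, -0.26. Red points were higher and blue points lower under all 5 scalings, filled grey points were called as deposited but not under all 5 scalings, and open points were not called with the values as deposited.

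Some facts of the libraries touch every value. Dhx16 itself was at 9.49 ± 1.56 FPKM in knockout and 17.5 ± 3.81 FPKM in control libraries (SD, n = 5 each), a change of -0.81 (SE 0.16, limma adjusted p = 0.00127). With the covariate for transcript length described below its change was -0.55 (adjusted p = 0.0924), and with that covariate and median-of-ratios scaling -0.31 (adjusted p = 0.283), so its call was lost in both. The sources used here do not say which exons were removed, so this value may include them or not. The authors' size factors, recovered from the deposited mean normalized counts of genes seen in only 1 library, ran from 0.734 to 1.26 in knockout and from 0.983 to 1.36 in control libraries, and the mean normalized counts summed to 14944432 over all genes. In the authors' deposited table the mean normalized count of the 28 genes ran from 160 for Polr2k to 4927 for Polr2m. All 12 stem cell markers on the list were detected. Their summed level was 572 to 891 FPKM in knockout and 858 to 1228 FPKM in control libraries, and 10 of the 12 were lower (6 under all 5 scalings). All 10 erythroid markers were higher (sums of 805 to 1253 FPKM in knockout and 136 to 435 FPKM in control libraries). All 8 macrophage markers were lower (17.9 to 38.8 FPKM in knockout and 165 to 373 FPKM in control libraries), as were all 8 megakaryocyte markers (718 to 1412 FPKM in knockout and 1528 to 2312 FPKM in control libraries). Under all 5 scalings 8 of the macrophage and 7 of the megakaryocyte markers were lower. Of 6 B lymphocyte markers 2 were tested and both were lower (1 under all 5 scalings). The sums of all 6 were 20.3 to 34.5 FPKM in knockout and 34.8 to 58.9 FPKM in control libraries. Of 10 cell cycle genes 9 were higher (1315 to 1601 FPKM in knockout and 411 to 639 FPKM in control libraries). No granulocyte or bone matrix marker was called (0 of 8 and 0 of 6), but their sums were large in both groups. They were for granulocyte markers 8546 to 40932 FPKM in knockout and 9657 to 74372 FPKM in control libraries, and for bone matrix markers 4549 to 47778 FPKM in knockout and 3180 to 65870 FPKM in control libraries. In bulk RNA, a change in the share of a cell type and a change in RNA per cell cannot be told apart, and the part of these markers in the polymerase values was not tested.

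The library composition also differed by transcript length. For each library, the median deviation of genes with a longest transcript of 5000 nt or more was set against that of genes of 1000 nt or less. This difference was -0.44 to -0.16 (log2) in knockout libraries. In control libraries it was 0.29 to 0.49 in WT2, WT3, WT5 and WT6 and -0.32 in WT4. Longer transcripts were thus lower relative to short ones in all 5 knockout libraries and in WT4, with CKO12 the lowest of all. Across the 28 genes the change and the transcript length had a Spearman correlation of -0.53, and across 11495 protein-coding genes tested it was -0.15. These are descriptions, since all genes come from the same libraries. Among genes between 1000 and 5000 nt, 21 of the polymerase genes had a median change of 0.26, against -0.25 over all 8482 protein-coding genes of that length. At 1000 nt or less, 5 polymerase genes had a median of 0.41, against 0.11 over 565 genes. Of those 565 genes, 31.2% were called higher and 17.2% lower. At 5000 nt or more, 2 polymerase genes had a median of -0.098, against -0.37 over 2448 genes.

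**Figure D2:**
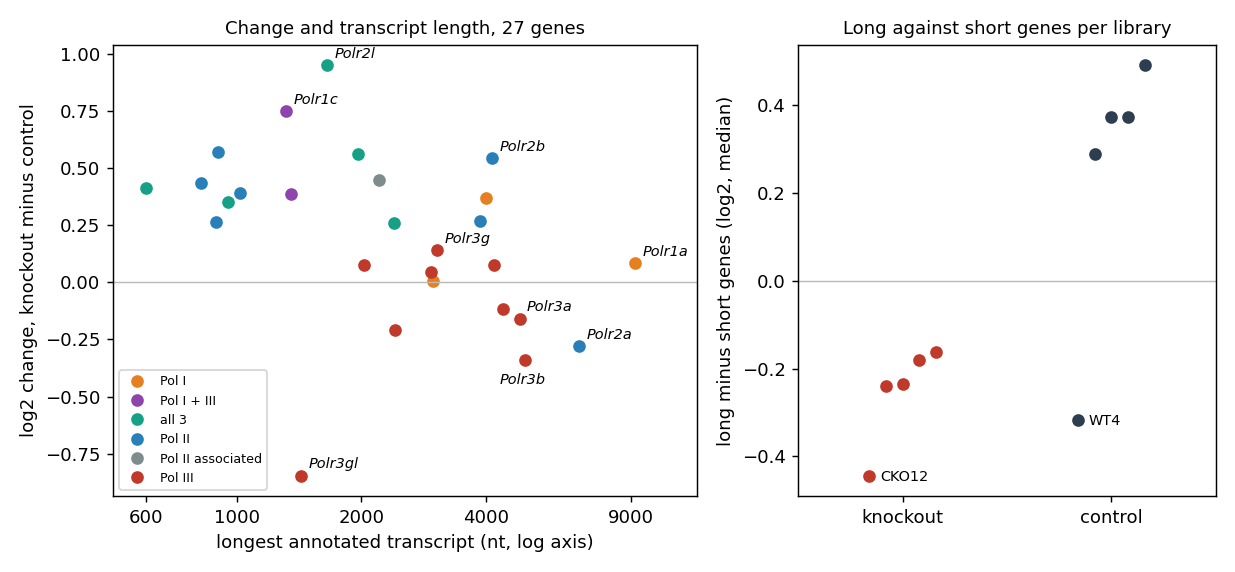
Left, log2 change (knockout minus control) of 27 of the 28 genes against the length of the longest annotated transcript (log axis), coloured by enzyme. Right, median deviation of long genes minus that of short genes in each library. All 5 knockout libraries and WT4 lie below 0, and the other control libraries lie between 0.29 and 0.49.

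The shared subunits held the largest rise. Polr2l, a small zinc-binding subunit of all 3 enzymes, was at 38.77, 36.55, 33.82, 37.32 and 42.60 FPKM in the knockout libraries CKO7, CKO8, CKO9, CKO12 and CKO13, against 19.03, 16.06, 30.73, 15.54 and 17.03 FPKM in the control libraries WT2 to WT6. Every knockout library lay above every control library, and WT4 was the highest control. The gene lies at chr7:141471860-141475132 on the minus strand and overlaps no other annotated gene. The change was 0.95 (SE 0.16, limma adjusted p = 0.000608). Polr2f, whose protein sits at the base of the clamp that holds DNA, was at 44.18, 64.46, 61.48, 46.43 and 61.38 FPKM in knockout and 40.46, 41.06, 46.82, 26.71 and 32.89 FPKM in control libraries. Here WT4 reached into the knockout range, above CKO7 and CKO12. The change was 0.56 (SE 0.16, adjusted p = 0.0121).

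The other shared subunits were not called with the values as deposited. Polr2e, which contacts the incoming DNA, was at 124.11, 137.80, 144.57, 117.99 and 121.17 FPKM in knockout and 121.16, 98.24, 140.17, 92.40 and 92.12 FPKM in control libraries. Polr2h, a small subunit on the outer side of the enzymes, was at 49.69, 63.32, 64.48, 50.51 and 58.20 FPKM in knockout and 58.14, 38.09, 61.25, 34.64 and 36.59 FPKM in control libraries. Both overlapped between the groups through WT2 and WT4. Polr2k, a zinc-binding subunit, had the shortest transcript of the set at 601 nt, and averaged 49.3 ± 5.31 FPKM in knockout and 38.4 ± 14.7 FPKM in control libraries (SD, n = 5 each). The changes of Polr2e, Polr2h and Polr2k were 0.26, 0.35 and 0.41 (adjusted p = 0.117, 0.1004 and 0.0817). In each of them WT4 was the highest control library, and without WT4 all 3 were called higher (adjusted p = 0.0187, 0.0258 and 0.000598). Polr2k was at 49.46, 48.51, 46.04, 44.25 and 58.01 FPKM in knockout libraries, against 32.05, 32.64, 32.30 and 30.11 FPKM in WT2, WT3, WT5 and WT6 and 64.65 FPKM in WT4. Thus 4 control libraries lay below every knockout library and WT4 above them all. With equal totals only Polr2l and Polr2f of these 5 genes were called, and with upper-quartile, median-of-ratios or the authors' scaling all 5 were.

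Polr1c and Polr1d are built into both RNA polymerase I and RNA polymerase III, where their proteins pair as the platform on which the large subunits assemble. Polr1c was at 46.73, 50.99, 55.16, 38.47 and 50.94 FPKM in knockout and 31.93, 27.28, 33.52, 24.61 and 24.81 FPKM in control libraries. The groups did not overlap, which was the case, with knockout higher, for 4 of the 28 genes and for 7.76% of all genes tested. The change was 0.75 (SE 0.13, adjusted p = 0.000521), and Polr1c was called higher in all 23 alternative settings. The gene lies at chr17:46243920-46248054 on the minus strand and overlaps no other annotated gene. Polr1d was at 98.28, 108.48, 102.73, 101.49 and 112.07 FPKM in knockout, against 83.73, 77.19, 107.43, 66.68 and 69.10 FPKM in control libraries, with WT4 inside the knockout range. Its change was 0.39 (SE 0.13, adjusted p = 0.0237). That call was lost with equal totals (adjusted p = 0.0988), without a filter on low values (0.0706), with the length covariate (change 0.06, adjusted p = 0.794) and without any single one of CKO8, CKO13, WT5 or WT6 (adjusted p = 0.0506, 0.0506, 0.0593 and 0.0582).

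**Figure D3:**
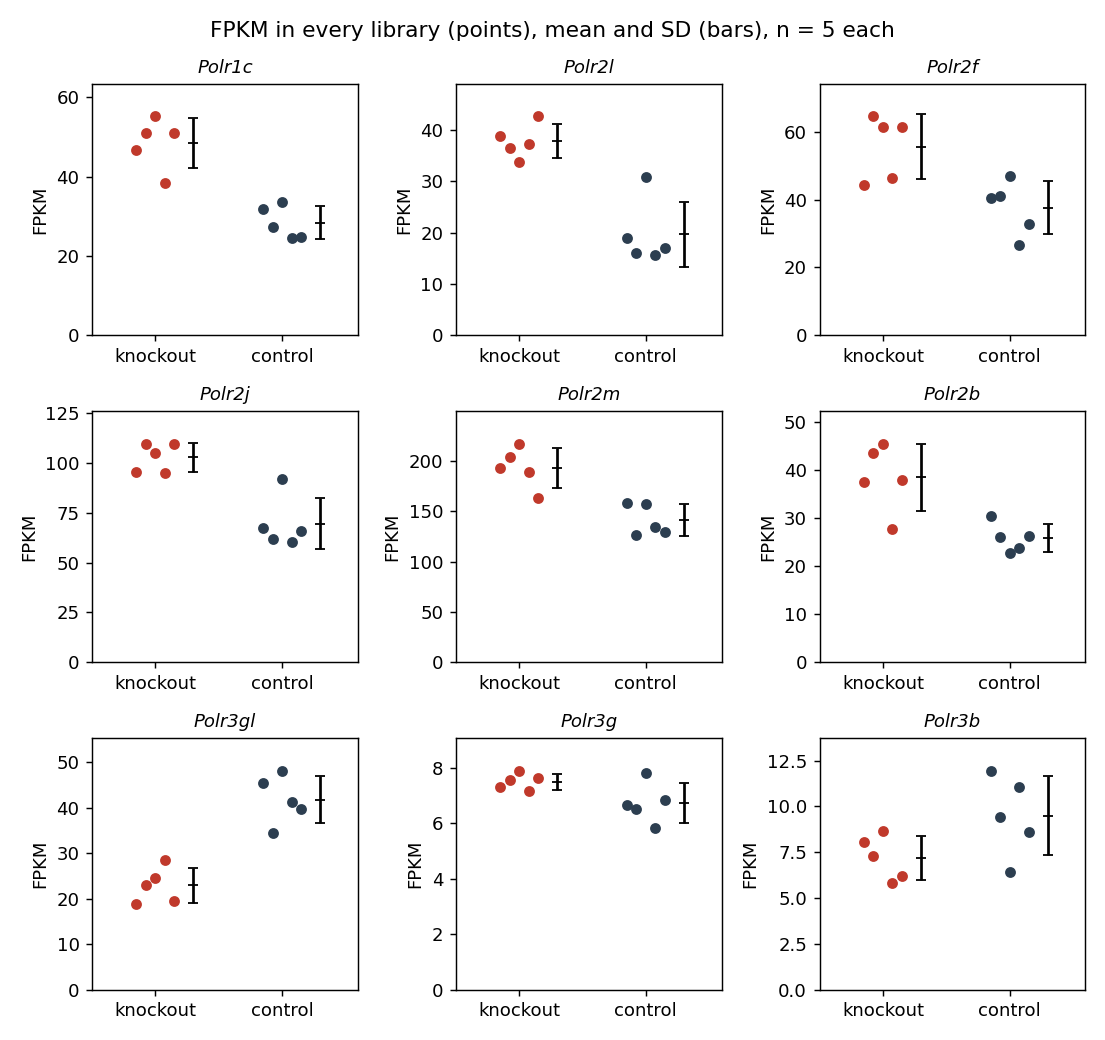
FPKM of 9 genes in every library (y axes start at 0), with the mean and SD of each group beside the points. Polr1c, Polr2l, Polr2j and Polr2m lie higher in all 5 knockout libraries than in any control library, and Polr3gl lies lower in all of them.

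None of the subunits found only in RNA polymerase I was called with the values as deposited. Polr1a, the largest catalytic subunit, was at 10.29, 11.77, 14.72, 7.69 and 10.33 FPKM in knockout and 12.11, 12.64, 7.53, 10.20 and 8.74 FPKM in control libraries. The groups overlapped throughout, and the lowest values belonged to CKO12 and WT4. The change was 0.08 (SE 0.18, adjusted p = 0.708). Polr1a was called higher only with the length covariate and median-of-ratios scaling together (change 0.75, adjusted p = 0.01003). Polr1b, its catalytic partner, was at 22.52, 26.58, 30.27, 15.83 and 25.65 FPKM in knockout and 23.36, 18.36, 14.45, 18.62 and 16.82 FPKM in control libraries. CKO7, CKO12 and WT2 made the groups overlap. The change was 0.37 (SE 0.17, adjusted p = 0.0883). Without CKO12, at 15.83 FPKM the lowest knockout library, Polr1b was called higher (adjusted p = 0.0126), as it was without WT2 (adjusted p = 0.0484). It was also called higher with upper-quartile, median-of-ratios and the authors' scaling (adjusted p = 0.0164, 0.00433 and 0.0046), with library quality weights (0.0226) and with the length covariate (change 0.75, adjusted p = 0.0276). Polr1e, which forms part of a module used in initiation and elongation, was at 21.29, 28.41, 31.36, 25.73 and 23.48 FPKM in knockout and 33.09, 24.45, 29.73, 23.48 and 19.83 FPKM in control libraries. The groups overlapped almost fully. The change was 0.01 (SE 0.15, adjusted p = 0.977).

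The subunits found only in RNA polymerase II rose in part. Polr2j, which pairs with Polr2c in the assembly platform, was at 95.17, 109.25, 104.83, 94.70 and 109.44 FPKM in knockout, against 67.30, 61.94, 91.71, 60.49 and 65.95 FPKM in control libraries. All knockout libraries lay above all controls, with WT4 close below them. The change was 0.57 (SE 0.12, adjusted p = 0.00217). Polr2b, the second largest subunit, was at 37.56, 43.46, 45.42, 27.65 and 37.90 FPKM in knockout and 30.30, 26.11, 22.77, 23.69 and 26.26 FPKM in control libraries. CKO12 lay below WT2, and the other knockout libraries lay above every control. The change was 0.54 (SE 0.14, adjusted p = 0.00602), and it was lost only with equal totals (adjusted p = 0.0594) among the 23 alternatives. The Polr2b locus overlaps Gm42758 and Igfbp7, and the Polr2j locus overlaps Lrwd1 and Gm43604. Overlaps also lie at Polr2f (1700088E04Rik), Polr1d (Rps10-ps4), Polr2h (Clcn2), Polr2i (Tbcb) and Polr2c (Dok4). Further ones lie at Polr1a (Gm19078 and Gm26628), Polr1e (Fbxo10), Polr3b (Gm17249) and Polr3c (Gm22581 and Gm42783). Whether the counting used strand is not given in the sources used here.

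Polr2d and Polr2g form the stalk. Polr2d was at 46.71, 57.26, 57.28, 39.67 and 52.80 FPKM in knockout and 40.35, 40.98, 45.82, 34.12 and 31.18 FPKM in control libraries. Polr2g was at 54.46, 57.81, 58.05, 49.38 and 53.37 FPKM in knockout and 50.28, 45.60, 65.95, 35.20 and 35.77 FPKM in control libraries. In both, WT4 was the highest control library and CKO12 the lowest knockout library. Their changes were 0.39 (adjusted p = 0.0297) and 0.26 (adjusted p = 0.178). The call of Polr2d was lost with equal totals (adjusted p = 0.168), without a filter on low values (0.0901), with the length covariate (change 0.29, adjusted p = 0.326) and without any single one of CKO8, CKO9, CKO13, WT5 or WT6 (0.073, 0.0662, 0.0593, 0.068 and 0.0737). Polr2c, the partner of Polr2j, was at 66.17, 78.08, 77.18, 65.99 and 73.48 FPKM in knockout and 73.80, 53.61, 68.34, 52.61 and 52.50 FPKM in control libraries (change 0.27, adjusted p = 0.0805). WT2 and WT4 lay in the knockout range, and the other controls below it. Polr2i, a zinc-ribbon subunit that serves fidelity and transcript cleavage, was at 43.48, 55.24, 50.49, 47.38 and 63.93 FPKM in knockout and 39.88, 30.95, 62.61, 27.03 and 37.65 FPKM in control libraries (change 0.43, adjusted p = 0.0789). WT4 alone lay in the knockout range. Without WT4, Polr2g, Polr2c and Polr2i were all called higher (adjusted p = 0.0191, 0.0458 and 0.0044). All 3 were also called higher with upper-quartile, median-of-ratios and the authors' scaling and with library quality weights.

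Polr2a encodes the largest subunit, whose repeated tail recruits splicing and capping factors. It was at 6.32, 6.56, 7.65, 3.99 and 5.53 FPKM in knockout and 10.05, 6.14, 7.06, 6.24 and 7.95 FPKM in control libraries. The groups overlapped, with CKO12 lowest and WT2 highest. The change was -0.28 (SE 0.17, adjusted p = 0.188), close to the median of all genes tested, and it was not called under any of the 5 scalings, with its sign turned to 0.04 under the authors' scaling. Polr2m encodes an RNA polymerase II binding protein outside the core enzyme that blocks the initiation factor TFIIF and makes the polymerase depend on Mediator. It had the highest level of the 28 genes, 193.33, 203.73, 217.24, 188.85 and 163.45 FPKM in knockout, against 158.38, 126.43, 157.63, 134.83 and 129.67 FPKM in control libraries. All knockout libraries lay above all controls, although CKO13 did so narrowly. The change was 0.45 (SE 0.11, adjusted p = 0.00587).

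The calls of Polr2l, Polr2f, Polr2j and Polr2m held without each single library, and were lost when the length difference of each library was entered as a covariate. Their changes were then 0.43, 0.32, 0.27 and 0.35 (adjusted p = 0.0729, 0.339, 0.189 and 0.125). That covariate nearly follows the genotype, with WT4 the one library on the other group's side. With it, 3 of the 28 genes were higher (Polr1b, Polr1c and Polr2b) and Polr3gl was lower, while 6.5% of all genes tested were called higher and 19.1% lower. With both the covariate and median-of-ratios scaling, 13 of the 28 genes were higher, among them Polr2l, Polr2f, Polr2j and Polr2m, and 1 was lower. Of all 13448 genes tested, 2174 were then called higher and 1571 lower. Without both WT4 and CKO12, 16 of the 28 genes were higher and 2 lower (Polr3b and Polr3gl), beside 15.7% and 32.0% of all genes tested. These 3 alternatives were chosen after the data were seen. Without WT4 alone, 15 were higher and 2 lower (14.6% and 34.6% of all genes tested), and with library quality weights 16 were higher and 1 lower (16.9% and 36.8% of all).

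RNA polymerase III held the only fall called with the values as deposited. Polr3gl and its paralog Polr3g encode exchangeable versions of a subunit in the module that opens the promoter. On GRCm38 Polr3gl lies at chr3:96577872-96594181 and Polr3g at chr13:81673843-81711013, both on the minus strand, and Gm16253 overlaps Polr3gl on the opposite strand. Polr3gl is the widespread form in adult tissues, and Polr3g is known for its high level in embryonic stem cells. Polr3gl was at 18.89, 23.03, 24.60, 28.41 and 19.52 FPKM in knockout, against 45.33, 34.45, 48.06, 41.26 and 39.66 FPKM in control libraries. Every knockout library lay below every control library. The groups did not overlap, with knockout lower, for 1 of the 28 genes, beside 25.1% of all genes tested. The change was -0.85 (SE 0.13, adjusted p = 0.000320), and Polr3gl was called lower in all 23 alternative settings. In the authors' deposited table its log2 fold change was -0.42 with an adjusted p of 0.0561, so it was not called there. Polr3gl had the 19th highest mean of the 28 genes in knockout libraries and the 9th in control libraries.

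Polr3g was at 7.30, 7.55, 7.90, 7.16 and 7.63 FPKM in knockout and 6.68, 6.53, 7.82, 5.82 and 6.84 FPKM in control libraries. The groups overlapped through WT4 alone, and the change was 0.14 (SE 0.11, adjusted p = 0.300). It was called higher with upper-quartile, median-of-ratios and the authors' scaling (adjusted p = 0.0315, 0.0066 and 0.0046), and was not called with equal totals. Scaling between libraries cancels in the ratio of the paralogs within a library. Without a pseudocount, Polr3g stood at 0.386, 0.328, 0.321, 0.252 and 0.391 of the Polr3gl level in knockout libraries, against 0.147, 0.190, 0.163, 0.141 and 0.172 in control libraries. All 5 knockout ratios were above all control ratios. On the log2 scale with the pseudocount of 1 the ratio was -1.48 ± 0.24 in knockout and -2.46 ± 0.16 in control libraries (SD, n = 5 each), a difference of 0.99. The two-sided exact permutation p was 0.00794, the smallest this design can give, and 0.0198 adjusted over the 5 ratios compared. The longest transcript is 3054 nt for Polr3g and 1427 nt for Polr3gl.

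Since the ratio of the paralogs differed between the groups, the sequences directly before their start sites are shown, from RefSeq (GRCm38.p6). Capitals mark matches, on either strand, to the 5 motifs whose letters are spelled out after the sequences, and no matches overlap each other. The Polr3gl window, chr3:96594182-96594431 on the minus strand, held 1 E-box and 2 CCAAT boxes. The Polr3g window, chr13:81711014-81711263 on the minus strand, held 1 ETS core and 1 GC box.
Polr3gl: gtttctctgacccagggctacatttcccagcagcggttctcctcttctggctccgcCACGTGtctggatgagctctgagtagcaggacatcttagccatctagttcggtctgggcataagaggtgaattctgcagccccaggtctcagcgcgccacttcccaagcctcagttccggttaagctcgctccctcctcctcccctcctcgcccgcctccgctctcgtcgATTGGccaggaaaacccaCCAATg
Polr3g: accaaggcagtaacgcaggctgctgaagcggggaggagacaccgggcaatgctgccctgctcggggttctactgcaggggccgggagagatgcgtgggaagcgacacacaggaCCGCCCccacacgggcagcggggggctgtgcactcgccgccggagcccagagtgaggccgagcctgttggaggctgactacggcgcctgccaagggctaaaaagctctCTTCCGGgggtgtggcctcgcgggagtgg
In the windows from 250 bases before to 50 after the start, 22 of the 28 genes had a sequence. The E-box, spelled CACGTG, stood in 4 of them (18.2%, against 8.09% of 27025 genes). These were Polr2h, Polr3c, Polr3e and Polr3gl, whose changes were 0.35, -0.21, 0.08 and -0.85. The ETS core, spelled CCGGAAG, stood in 7 (31.8%, against 9.93% of genes), and these were Polr1c, Polr1e, Polr2c, Polr2f, Polr2j, Polr3b and Polr3g, whose changes were 0.75, 0.01, 0.27, 0.56, 0.57, -0.34 and 0.14. The GC box, spelled GGGCGG, stood in 14 (63.6%, against 38.2%). The CCAAT box stood in 7 (31.8%, against 41.1%), and the TATA box, spelled TATAAA, in 2 (9.09%, against 15.7%). A match is a description of the letters and not of binding.

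The catalytic subunits of RNA polymerase III were among the lowest genes of the set. Polr3a, the largest, was at 6.70, 7.34, 7.39, 3.05 and 7.09 FPKM in knockout and 7.38, 6.44, 6.62, 6.73 and 7.33 FPKM in control libraries. CKO12 stood far below the other 9 libraries, which lay close together. The change was -0.16 (SE 0.19, adjusted p = 0.506), and without WT4 and CKO12 it was 0.03. Its sign was also positive with median-of-ratios scaling (0.07) and the authors' scaling (0.16). Polr3b, its catalytic partner, was at 8.03, 7.31, 8.67, 5.84 and 6.18 FPKM in knockout and 11.94, 9.43, 6.44, 11.06 and 8.58 FPKM in control libraries. The groups overlapped through WT4 at 6.44 FPKM and WT6 at 8.58 FPKM. The change was -0.34 (SE 0.16, adjusted p = 0.101). Polr3b was called lower without WT4 (adjusted p = 0.0232), and its change was 0.13 with the length covariate (adjusted p = 0.635).

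The RNA polymerase III genes Polr3c, Polr3d, Polr3e, Polr3f and Polr3k were not called with the values as deposited. Polr3c and Polr3f are partners of Polr3g and Polr3gl in the promoter-opening module. Polr3c was at 20.67, 23.17, 23.45, 17.99 and 19.07 FPKM in knockout and 26.23, 22.71, 27.67, 22.00 and 22.61 FPKM in control libraries, a change of -0.21 (SE 0.11, adjusted p = 0.142). Polr3f was at 7.64, 10.25, 9.96, 6.67 and 9.52 FPKM in knockout and 10.08, 9.46, 9.42, 9.31 and 9.39 FPKM in control libraries, a change of -0.12 (SE 0.13, adjusted p = 0.462). The control values of Polr3f were nearly level, while the knockout values spread on both sides of them. Polr3d and Polr3e encode a pair related to TFIIF. Polr3d was at 14.22, 17.02, 16.56, 19.97 and 22.68 FPKM in knockout and 22.71, 17.96, 16.88, 11.82 and 16.72 FPKM in control libraries, a change of 0.08 (SE 0.17, adjusted p = 0.716). Polr3e was at 21.49, 23.38, 23.74, 18.78 and 21.19 FPKM in knockout and 25.10, 20.60, 20.57, 18.42 and 18.41 FPKM in control libraries, a change of 0.08 (SE 0.11, adjusted p = 0.603). Neither gene separated the groups. Polr3k, which serves transcript cleavage and termination, was at 22.14, 25.76, 26.83, 22.80 and 23.47 FPKM in knockout and 27.90, 21.69, 29.57, 19.49 and 19.77 FPKM in control libraries, a change of 0.05 (SE 0.13, adjusted p = 0.788). Calls and signs among these genes depended on the scaling. Polr3c was called lower with equal totals (adjusted p = 0.0400), and its sign and that of Polr3f were positive with median-of-ratios and the authors' scaling. Polr3e was called higher with upper-quartile, median-of-ratios and the authors' scaling (adjusted p = 0.0394, 0.00478 and 0.0093) and Polr3k with the last pair of these (adjusted p = 0.0254 and 0.0283), while Polr3d, Polr3e and Polr3k had negative signs with equal totals. The median change was -0.04 for the 10 genes of RNA polymerase III alone, 0.39 for the 7 of RNA polymerase II alone, 0.08 for the 3 of RNA polymerase I alone and 0.41 for the 5 shared by all. With median-of-ratios scaling these medians were 0.21, 0.65, 0.32 and 0.67, in the same order among the enzymes. With the length covariate they were -0.02, 0.15, 0.51 and 0.04, and with that covariate and median-of-ratios scaling 0.22, 0.41, 0.75 and 0.30. The 3 genes of RNA polymerase I then had the highest median of these sets, but they are not all of its own subunits. Twistnb, Cd3eap and Znrd1 also belong to it and stand outside the sets by symbol, as does Crcp of RNA polymerase III. These 4 genes had a median of -0.35 with the length covariate. With that covariate and median-of-ratios scaling it was -0.10, so the order of the enzymes depends on which subunits are counted. The difference between the enzymes was not tested, and the sets also differ in transcript length.

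Ratios between matched catalytic subunits compare the enzymes within each library. The log2 ratio of Polr3b to Polr2b was -2.26 ± 0.17 in knockout and -1.37 ± 0.24 in control libraries (SD, n = 5 each), a difference of -0.88 (exact permutation p = 0.00794, adjusted p = 0.0198). All 5 knockout ratios were below all control ratios. Without WT4 and CKO12 the difference was -1.005 here and 1.08 for the paralogs, with an adjusted exact permutation p of 0.0714 for each. Both ratios were then at the smallest p the test can give with the remaining libraries. Beside the other ratios compared, neither could pass 0.05 after adjustment, whatever its size. The ratio of Polr1b to Polr2b was -0.66 ± 0.10 in knockout and -0.48 ± 0.14 in control libraries, a difference of -0.17 (exact permutation p = 0.0556, adjusted p = 0.0926). The ratio of Polr1a to Polr2a was 0.77 ± 0.09 in knockout and 0.40 ± 0.37 in control libraries, a difference of 0.36 (exact permutation p = 0.103, adjusted p = 0.129). The ratio of Polr3a to Polr2a was 0.04 ± 0.23 in knockout and -0.09 ± 0.19 in control libraries, a difference of 0.12 (exact permutation p = 0.357, adjusted p = 0.357). Of the 4 pairs of subunits from different enzymes, only Polr3b over Polr2b passed the permutation test after adjustment. The ratios were not tested with the length covariate.

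**Figure D4:**
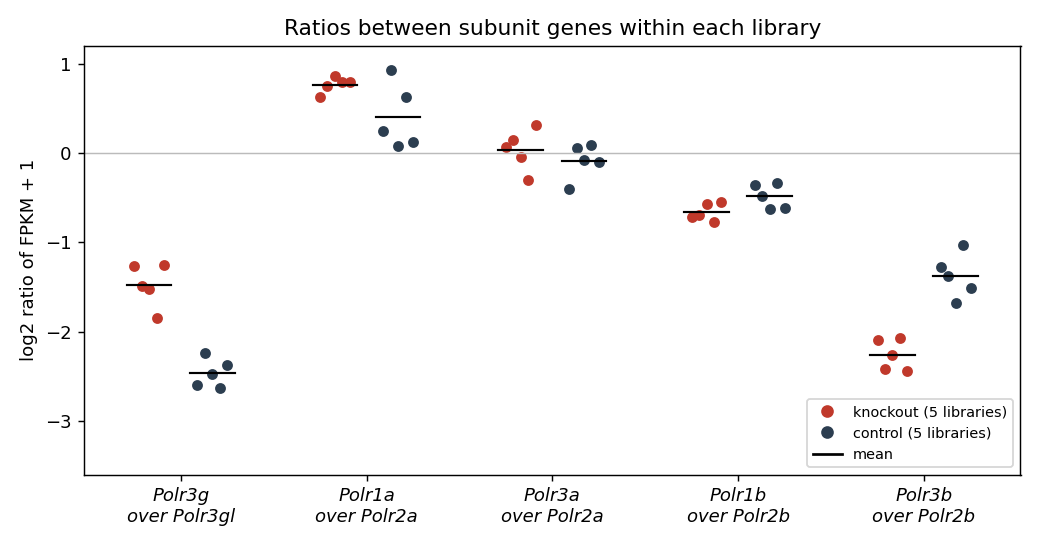
Log2 ratio of FPKM + 1 between pairs of subunit genes in each library (points), with the mean of each group (black lines). The ratios of Polr3g to Polr3gl are higher, and those of Polr3b to Polr2b lower, in all 5 knockout libraries than in any control library.

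In the authors' deposited table, 23 of the 28 genes had an adjusted p under 0.05 with a positive log2 fold change and 0 with a negative one, where 17.1% of the 23405 genes with an adjusted p were higher and 11.5% lower. The median log2 fold change of the 28 genes there was 0.64. The genes not called in that table were Polr2a, Polr3a, Polr3b, Polr3c and Polr3gl. The largest fold changes there were those of Polr2l (1.36) and Polr1c (1.196), which also led with the FPKM values.

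Subunits listed under other symbols did not pass the test with the values as deposited. Twistnb and Cd3eap, of RNA polymerase I, averaged 28.7 ± 4.31 and 11.1 ± 1.54 FPKM in knockout, against 39.2 ± 10.1 and 9.88 ± 2.37 FPKM in control libraries. Znrd1, also of RNA polymerase I, averaged 44.5 ± 5.24 FPKM in knockout and 52.7 ± 14.2 FPKM in control libraries. Crcp, of RNA polymerase III, averaged 30.6 ± 1.31 FPKM in knockout and 28.4 ± 4.24 FPKM in control libraries. Their changes were -0.41, 0.17, -0.21 and 0.11, and the lowest adjusted p was 0.0531, for Twistnb. Twistnb was called lower with equal totals (adjusted p = 0.00978), and Cd3eap and Crcp were called higher with median-of-ratios scaling (adjusted p = 0.0177 and 0.00385). With the length covariate 0 of these 4 genes were higher and 2 lower, beside 6.5% and 19.1% of all genes tested. Cd3eap and Crcp were not called there (adjusted p = 0.827 and 0.976), so the falls were those of Twistnb and Znrd1. With the filter of 10 FPKM 1 of the 4 was called lower, beside 2182 of 6913 genes.

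Among the factors that work with the enzymes, calls went in both directions, as over all genes tested. There 13.4% were called higher and 36.4% lower, and 9.65% and 14.8% under all 5 scalings. Of 7 RNA polymerase I initiation factors 3 were higher and 0 lower (0 under all 5 scalings, median -0.11), among them Ubtf, which binds ribosomal DNA, at 42.3 ± 4.18 FPKM in knockout and 32.4 ± 5.21 FPKM in control libraries (change 0.38, adjusted p = 0.0200). Of 17 RNA polymerase III factors 0 were higher and 2 lower (1 under all 5 scalings, median -0.05). Snapc5, of the complex that recognises small nuclear RNA promoters, was at 11.95 ± 1.19 FPKM in knockout and 21.1 ± 4.86 FPKM in control libraries (change -0.75, adjusted p = 0.00109). Of 17 general initiation factors of RNA polymerase II 5 were higher and 1 lower (3 and 0 under all 5 scalings, median 0.16). Gtf2f1, a subunit of TFIIF, was at 45.6 ± 2.13 FPKM in knockout and 30.4 ± 4.80 FPKM in control libraries (change 0.58, adjusted p = 0.00136). Gtf2b, which is TFIIB, was at 41.0 ± 1.98 FPKM in knockout and 51.7 ± 5.16 FPKM in control libraries (change -0.32, adjusted p = 0.0146), a fall that turned to 0.04 with the authors' scaling.

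Of 19 pausing and elongation factors 3 were higher and 3 lower (1 and 2 under all 5 scalings, median -0.01). Nelfa, a subunit of the negative elongation factor, rose to 67.8 ± 5.84 FPKM in knockout, against 26.8 ± 3.09 FPKM in control libraries (change 1.31, adjusted p = 1.30e-05). Cdk9, the kinase that releases paused polymerase, fell to 9.97 ± 1.33 FPKM in knockout, against 16.5 ± 2.104 FPKM in control libraries (change -0.68, adjusted p = 0.000871). Of 12 assembly and import factors 2 were higher and 2 lower (2 and 0 under all 5 scalings, median 0.06). Ruvbl2, an ATPase of the assembly machinery, was at 118 ± 16.6 FPKM in knockout and 59.4 ± 11.5 FPKM in control libraries (change 0.99, adjusted p = 0.000220), and Pih1d1, its partner, at 43.1 ± 2.67 FPKM in knockout and 59.6 ± 6.34 FPKM in control libraries (change -0.46, adjusted p = 0.00264). Of 6 genes of mitochondrial transcription 0 were higher and 3 lower (1 under all 5 scalings, median -0.22). Mterf1b was the one with the lowest adjusted p, at 1.32 ± 0.18 FPKM in knockout and 3.02 ± 0.85 FPKM in control libraries (change -0.77, adjusted p = 0.00154), and reads of its near-identical copy Mterf1a may be shared. All these medians are to be read against -0.26 over all genes tested, and the counts against 13.4% higher and 36.4% lower.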

How the data were processed

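RNA of 5 knockout and 5 control samples was measured with Smart-Seq V4 libraries, per the labels' protocols. Bowtie 0.12.9, Cufflinks 2.1.1, HTSeq and mm10 are named in the submitters' processing notes, without roles. The deposited library columns were taken as FPKM made by the authors, since the header names no unit. The deposited mean normalized counts are a signal, and the log2 fold changes, the Wald score and each p-value stand under DESeq2's column names, per the file headers. The authors' size factors were recovered from genes seen in 1 library, where 10 times the mean normalized count is a whole count divided by the size factor (99.4% to 100% whole within 0.01). Coordinates and lengths came from GENCODE M21 on GRCm38 (all 52097 IDs matched).

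FPKM were used as deposited, as log2 of FPKM + 1, with limma 3.58.1 (trend and robust options) in R 4.3.3 and no covariate. The filter was 1 FPKM in at least 5 libraries, lower than 10 FPKM so that the large catalytic subunits were tested. The fit was tested on simulated data with independent noise in each gene and library. The simulation held no differences between libraries in scaling or transcript length, so it says nothing on calls that depend on these. Ratios were tested with two-sided exact permutation tests in SciPy 1.17.1. The result of 1 of the 28 genes is not reported here by itself, although counts and medians include it. The other members were named, and in each list of other genes the called gene with the lowest adjusted p in each direction. The members and lists were chosen with earlier results of these data known. Alternatives covered scaling, pseudocount, filter, limma options, library weights and leaving out libraries. Amino acid sequences were not used here.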

Additional observations from a re-analysis of the deposited data

Results flagged for a closer look

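Among 72 groups of 5 values examined (the 28 genes, Dhx16, the 5 ratios and 2 measures of library composition), 8 held a library far from the other 4. Chance flags about 1 in 20 groups. WT4 stood apart at 91.71 FPKM for Polr2j, 64.65 FPKM for Polr2k and 30.73 FPKM for Polr2l, each above the other controls. It was also apart in the difference between long and short genes, at -0.3175 (log2), and in the share of the summed FPKM of the 28 genes that came from the catalytic pairs Polr1a, Polr1b, Polr2a, Polr2b, Polr3a and Polr3b, at 5.09%, against 8.18% to 8.48% in the other controls. CKO12 stood apart at 3.05 FPKM for Polr3a and at -0.4444 for the difference between long and short genes. WT2 stood apart for Polr3f at 10.08 FPKM, in a group whose SD was 0.31 FPKM. The processed pseudogene Polr2k-ps, outside the 28 genes, was at 2.88 FPKM in CKO12 and at 0 in the other 9 libraries.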

How the results depend on the processing

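Beside the values as deposited (1797 genes higher, 4890 lower), the counts were 3209 and 2952 with median-of-ratios scaling, 3478 and 1991 with the authors' scaling, 874 and 2570 with the length difference as covariate, and 2174 and 1571 with that covariate and median-of-ratios scaling. A filter of 10 FPKM left 6913 genes tested, with 1460 higher, 2182 lower and a median change of -0.12. Of the 28 genes 23 passed that filter, with 9 higher and 1 lower. Over single libraries left out the counts of all genes ran from 1497 to 1961 higher and from 4212 to 4892 lower. Of the 28 genes, 9 were higher and 1 lower as deposited. Higher were 5 with equal totals, 18 with upper-quartile, 19 with median-of-ratios and 19 with the authors' scaling, 16 with library quality weights (2269 of all genes), 16 without WT4 and CKO12 and 3 with the length covariate, and lower were 2 with equal totals and 2 without WT4 and CKO12. Leaving out single libraries gave 7 to 15 higher (15 without WT4, beside 1961 of all genes) and 1 to 2 lower (2 without WT4). Without both WT4 and CKO12 the ratio of Polr3g to Polr3gl differed by 1.08 and that of Polr3b to Polr2b by -1.005 (exact permutation, adjusted p = 0.0714 each). Both were at the smallest p the test can give with the remaining libraries, so the adjusted value does not show a loss. With single libraries left out the differences ran from 0.93 to 1.08 for Polr3g over Polr3gl, from -0.96 to -0.80 for Polr3b over Polr2b, from 0.28 to 0.50 for Polr1a over Polr2a, from 0.04 to 0.21 for Polr3a over Polr2a and from -0.21 to -0.14 for Polr1b over Polr2b. Changes of uncalled genes, and of the called Gtf2b, crossed 0 in some settings. With equal totals they came to -0.0281 for Crcp, -0.0476 for Polr1a, -0.13 for Polr1e, -0.0587 for Polr3d, -0.0621 for Polr3e and -0.0910 for Polr3k. With upper-quartile scaling they came to 0.0060 for Polr3f. With median-of-ratios scaling they came to 0.0657 for Polr3a, 0.0434 for Polr3c, 0.12 for Polr3f and 0.0494 for Znrd1. With the authors' scaling they came to 0.0389 for Gtf2b, 0.0403 for Polr2a, 0.16 for Polr3a, 0.15 for Polr3c, 0.22 for Polr3f and 0.15 for Znrd1. With the length covariate they came to -0.0774 for Cd3eap, -0.0083 for Crcp, -0.12 for Polr1e, -0.11 for Polr2g, -0.14 for Polr2i, -0.15 for Polr2k, 0.0728 for Polr3a, 0.13 for Polr3b, -0.0437 for Polr3d, -0.0103 for Polr3g and -0.18 for Polr3k. With that covariate and median-of-ratios scaling they came to 0.0938 for Polr2a, 0.31 for Polr3a, 0.36 for Polr3b and 0.21 for Polr3f. Without WT4 and CKO12 the change was 0.0297 for Polr3a. Over single libraries left out they ran from -0.0206 to 0.1932 for Polr1a, from -0.0837 to 0.0940 for Polr1e, from -0.2204 to 0.0423 for Polr3a, from -0.0421 to 0.1797 for Polr3d and from -0.0151 to 0.1292 for Polr3k. The cause was not tested. No paired analysis was possible because the library columns do not carry the replicate numbers of the labels. Depth limits the genes with the fewest counts most, such as Polr2k and Polr3g, with 160 and 211 mean normalized counts in the authors' deposited table.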
